A study of Rattus norvegicus with 2 samples.

Results

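Continuous regions of H3K27me3 over 10 kb wide were examined in a ChIP-seq map of rat sciatic nerve. They were chosen by width from the authors' list of 90174 regions: every region on autosomes 1 to 20 wider than 10000 bp, leaving out those inside 3 spans, chr3:67900000-68400000, chr7:142000000-142600000 and chr10:83700000-84500000. The rule kept 203 regions. Of the 216 regions this wide in the whole list, 11 lay inside the 3 spans and 2 lay on X. The tissue came from male Sprague Dawley rats, and 2 ChIP libraries form the only group, with no treatment or genotype in the labels. The directory names in the file header contain the word Sham, which no label repeats, and the labels give P28 in a passage field for both libraries, whose meaning for tissue is not stated. No label gives an age. Whole nerve was used, so Schwann cells, fibroblasts, perineurial, endothelial and immune cells all contribute chromatin, and a region marked in a few cells cannot be told apart from one weakly marked in many.

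H3K27me3 is histone H3 trimethylated at lysine 27. Polycomb repressive complex 2 writes it through its enzyme subunits EZH1 and EZH2, its EED subunit binds the finished mark and helps the complex to extend it along neighbouring nucleosomes, and Polycomb repressive complex 1 can bind it. Wide continuous stretches of the mark are known from silent genes of developmental regulators, and in Schwann cells Polycomb repressive complex 2 is known to help keep genes of the injury response silent. Genes under the 203 regions were not analysed here, because no source used here gives the genome build of the list. The tissue label could thus not be checked against marker genes. Every region is named by its position as deposited, with no statement of whether starts count from 0 or 1, and no sequence is shown.

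The caller was run once, on 46.8 M combined ChIP tags and 41.2 M combined input tags, the second total being derived from the scaled columns. No value exists for a single library, so no replicate spread can be given. Intervals of folds and rates below are 95% exact intervals for counting error alone. Those of medians and of shares of regions are 95% intervals over regions, taken as independent, and measure no spread between libraries or animals. Neither these nor the intervals of rates allow for regions that lie close together. Width, ChIP tags and input tags entered the choice or the calling of these regions, so their values are given as a description without tests.

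The 203 regions were few in number and held more of the ChIP tags than of the covered length. They made up 0.227% of the 89523 autosomal regions, covered 3.15 Mb, or 8.75% of the autosomal covered length, and held 15.8% of the ChIP tags in autosomal regions. Their share of the input tags was 9.28%, close to their share of the length. Regions of 5 to 10 kb outside the same spans numbered 463, covered 3.16 Mb and held 12.4% of the ChIP tags, and the 1853 of 2 to 5 kb covered 5.55 Mb and held 16.5%. About the same length of sequence held 916846 ChIP tags in the regions over 10 kb and 719556 in those of 5 to 10 kb, while the input tags were 48359 and 47413.

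Widths ran from 10.1 to 34.3 kb with a median of 14.0 kb and quartiles of 11.7 and 17.8 kb. Only 34 regions were wider than 20 kb and 6 were wider than 30 kb. The 34 widest held 26.6% of the length and 28.1% of the ChIP tags of the 203. A threshold at 10 kb does not fall on a gap in the widths. The 3 regions just inside it were chr2:211081655-211091717, chr6:88064118-88074195 and chr9:96754161-96764258, with 10.1 kb each and ChIP densities of 51.2, 99.3 and 73.9 normalized tags per kb. The 3 just outside it were chr2:43705738-43715727, chr6:87032469-87042454 and chr4:32224300-32234269, with widths of 9.99, 9.98 and 9.97 kb and densities of 86.9, 38.4 and 63.4. The densities of these few regions overlapped across the threshold. Over all regions the median density was 44.6 at 5 to 10 kb and 54.8 at 10 to 12 kb.

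ChIP density is the deposited normalized tag count, scaled to 10000000 tags in all, per kb of region. Its median over the 203 regions was 60.7 per kb (95% interval of the median 59.0 to 63.2), the quartiles were 53.1 and 69.4, and the range was 32.6 to 106.0. In regions of 5 to 10 kb the median was 44.6 with quartiles of 37.2 and 53.9, and in regions of 2 to 5 kb it was 33.5 with quartiles of 29.4 and 39.5. The lower quartile of the regions over 10 kb thus lay near the upper quartile of those of 5 to 10 kb, and single regions of the narrower classes reached higher values, up to 246.9 and 377.1. The caller joined windows that each held at least 14 tags, so width and density are not separate measurements.

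Within the 203 regions the wider ranges had the higher median densities. The median was 54.8 per kb in the 58 regions of 10 to 12 kb, 59.2 in the 62 of 12 to 15 kb, 64.6 in the 49 of 15 to 20 kb and 67.1 in the 34 over 20 kb. The lower quartiles of these ranges were 47.1, 53.2, 59.9 and 58.2, and the upper quartiles were 62.9, 66.3, 71.1 and 73.0, so neighbouring ranges overlapped. Across regions, log2 density and log2 width had a Pearson r of 0.30 and a Spearman rho of 0.35 (n = 203 regions of 1 list, which share their libraries and their caller), and r was 0.30 without the 2 widest. Input density had no such relation with width (r = 0.05, rho = 0.03).

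**Figure D1:**
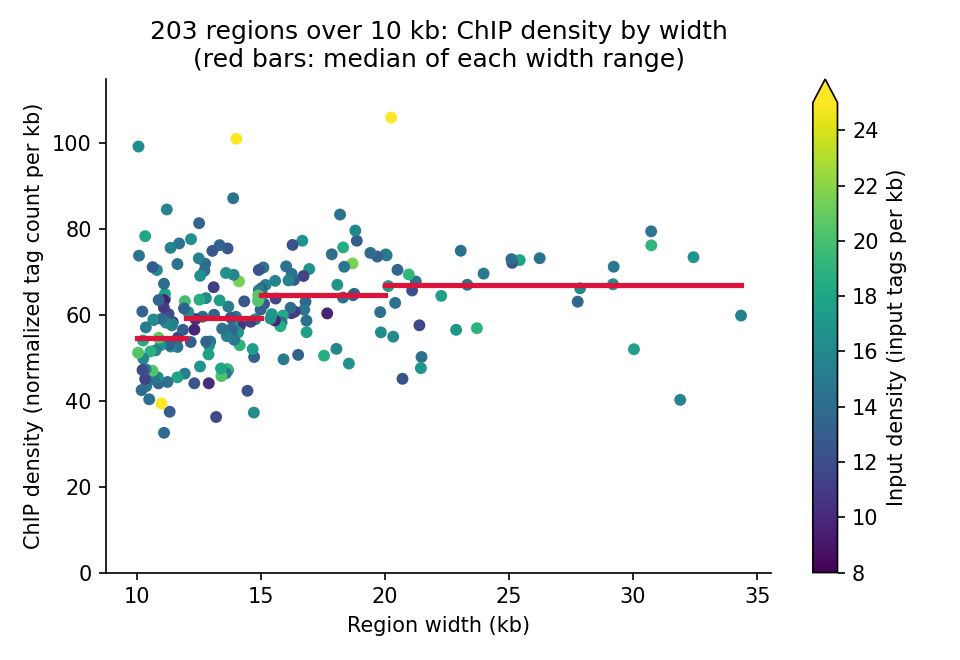
ChIP density in normalized tags per kb against region width in kb, 1 point per region (n = 203), coloured by input tags per kb, with red bars at the median of each width range. The medians go from 54.8 per kb at 10 to 12 kb to 67.1 over 20 kb, and the 2 yellow points above 100 per kb are regions of high input.

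The 5 widest regions did not have the 5 highest densities. The widest, chr6:86920821-86955170, held 59.9 normalized tags per kb over 34.3 kb, just below the median of all 203. The next, chr20:57184025-57216459, held 73.5 per kb. The third, chr2:140799758-140831656, held only 40.2 per kb at 31.9 kb wide, and its fold over input of 10.6 (9.65 to 11.6) was the lowest of these 5. The others were chr6:155679047-155709782 with 76.3 per kb and chr3:102313599-102344328 with 79.5. Smaller regions covered 3.25% to 15.3% of the 50 kb on either side of the 5, with the smallest share beside the chromosome 2 region.

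Of the 5 regions with the highest ChIP density, the top 2 also stood apart in input. The region chr9:69848950-69869206 had 106.0 normalized ChIP tags per kb and 32.8 input tags per kb, and chr2:71031543-71045563 had 101.1 and 47.4. Input density of the other 201 regions reached at most 24.9 per kb, in chr2:11740916-11751918, and 187 of the 203 regions lay between 10 and 20. Relative to input, these 2 dense regions were not high. Their folds were 13.3 (12.3 to 14.4) and 8.79 (8.12 to 9.54), the second of which was the second lowest of all 203. The smaller regions within 50 kb of them held 17.3 and 19.2 input tags per kb, so the excess of input was larger inside the regions than beside them.

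The other 3 dense regions had ordinary input and high folds. The region chr6:88064118-88074195 held 99.3 normalized ChIP tags and 16.3 input tags per kb, with a deposited fold of 25.1 (21.5 to 29.5). In chr17:74097971-74111863 the density was 87.2 and the fold 24.8 (21.6 to 28.7), and in chr8:106620189-106631406 they were 84.6 and 22.2 (19.1 to 25.97). Their fold intervals overlap, so the order of these 3 by fold is not resolved. Both the chromosome 6 and the chromosome 17 region had another region over 10 kb within 1 kb of an edge, while the nearest to the chromosome 8 region was 891 kb away.

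The 5 least dense regions had folds below the median of the 203. The lowest density, 32.6 per kb, was found in chr10:104417545-104428651, with a fold of 9.67 (8.20 to 11.5). It was followed by chr13:56518996-56532201 at 36.3 and 12.6-fold (10.7 to 14.96), chr19:44044740-44059464 at 37.3 and 9.42-fold (8.25 to 10.8), and chr17:87890372-87901705 at 37.5 and 11.9-fold (10.1 to 14.2). The fifth, chr2:11740916-11751918, joined a density of 39.4 to the third highest input, 24.9 tags per kb, and had the lowest fold of all, 6.51 (5.74 to 7.42). All 5 were narrower than 15 kb, but only 83 of the 203 were wider than that.

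Relative to counting error ChIP density varied more than input density, but relative to their means both varied to a similar extent. Median input density was 14.7 tags per kb (95% interval of the median 14.4 to 15.3), with quartiles of 13.4 and 16.8, beside 14.4 in regions of 5 to 10 kb, 14.2 in those of 2 to 5 kb and 13.3 over all autosomal regions. The SD of input density over the 203 regions was 3.65, and tag counting alone gives 1.03, a ratio of 3.53. For ChIP density the SD was 11.8 and counting gives 0.9499, a ratio of 12.4. Leaving out the 3 regions of highest input brought the input ratio to 2.45 and the ChIP ratio to 11.5. As a share of the mean, the SD was 23.8% for input and 19.2% for ChIP, and 16.7% and 18.0% without those 3. Counting alone gives 6.75% for input and 1.55% for ChIP over the 203 regions. Input tags were far fewer, with a median of 209 per region against 4207 ChIP tags, so both ratios depend on depth. Differences between regions in ChIP density were thus far larger than the error of counting tags, and those in input were larger as well. ChIP density did not follow input density across regions (Spearman rho -0.01, and -0.03 without those 3).

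**Figure D2:**
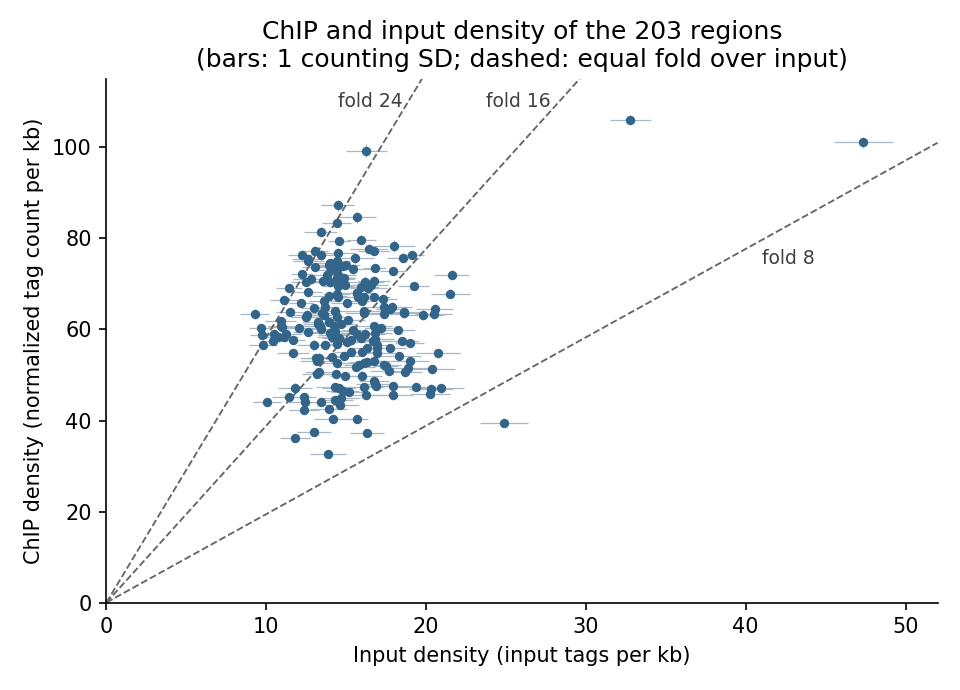
ChIP density against input density, 1 point per region (n = 203), with bars of 1 counting SD and dashed lines of equal fold over input at 8, 16 and 24. Most points lie between 10 and 20 input tags per kb and spread widely in ChIP density, and 2 points lie far to the right at 32.8 and 47.4 input tags per kb.

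Regions with the least input per kb were chr3:18006169-18017267, chr5:162033023-162050702 and chr10:86067033-86082602, at 9.28, 9.67 and 9.76. Their ChIP densities, 63.5, 60.4 and 58.7, lay close to the median of 60.7. Their folds of 28.2 (23.2 to 34.6), 25.7 (22.1 to 30.1) and 24.8 (21.1 to 29.3) are high through the low input, and the first is the highest of all 203.

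The deposited fold over input had a median of 16.9 and quartiles of 13.6 and 20.3. A fold of 8 or more was reached by 202 of the 203 regions, beside 50.5% of all autosomal regions, and nothing is read from this because the fold belongs to the calling. The pooled fold of the 203 was 16.7 (16.5 to 16.8). Taken one by one, 68 regions had an interval wholly above this value, 69 wholly below it and 66 included it. These 66 were not resolved from the pooled value at this depth. The deposited p-value was written as 0 for all 203 and could not rank them. The caller's clonality value, which had to stay below 2, had a median of 0.860 in the 203, 0.880 at 5 to 10 kb and 0.870 at 2 to 5 kb, and it was unrelated to ChIP density across the 203 (rho -0.01).

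Most of the 203 regions lay far apart, and a minority lay close together. The median distance to the nearest other region over 10 kb was 1.16 Mb, with quartiles of 68.3 kb and 6.402 Mb. Another region of this kind lay within 100 kb of 61 of the 203, or 30.05% (95% interval 23.8% to 36.9%). Such nearness is mutual and the 61 fall into 27 groups, so they are not independent, and the interval does not allow for this. Over all autosomal regions the share with one of the 203 within 100 kb was 7.21%, and it was 23.97% for regions of 5 to 10 kb and 14.7% for regions of 2 to 5 kb. Within 10 kb the shares were 15.3% of the 203, 13.2% of regions of 5 to 10 kb and 6.64% of those of 2 to 5 kb.

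Gaps between neighbours on a chromosome fell into very different sizes. Among the 183 neighbouring pairs the median gap was 3.82 Mb, 69 gaps were over 10 Mb and 34 were 100 kb or less. Of the 34, 12 were under 1 kb. Per the labels' protocols chromatin was sheared to 0.5 to 2 kb on average, while 168 bp is the fragment length in the file header. The 12 gaps ran from 220 to 795 bp, all longer than the second of these sizes and shorter than the upper end of the first. The 5 shortest gaps measured 220, 245, 261, 323 and 348 bp. The minimum distance set for the caller was 370 bp between windows of 150 bp, so edge gaps of about 220 bp are the shortest that it leaves.

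**Figure D3:**
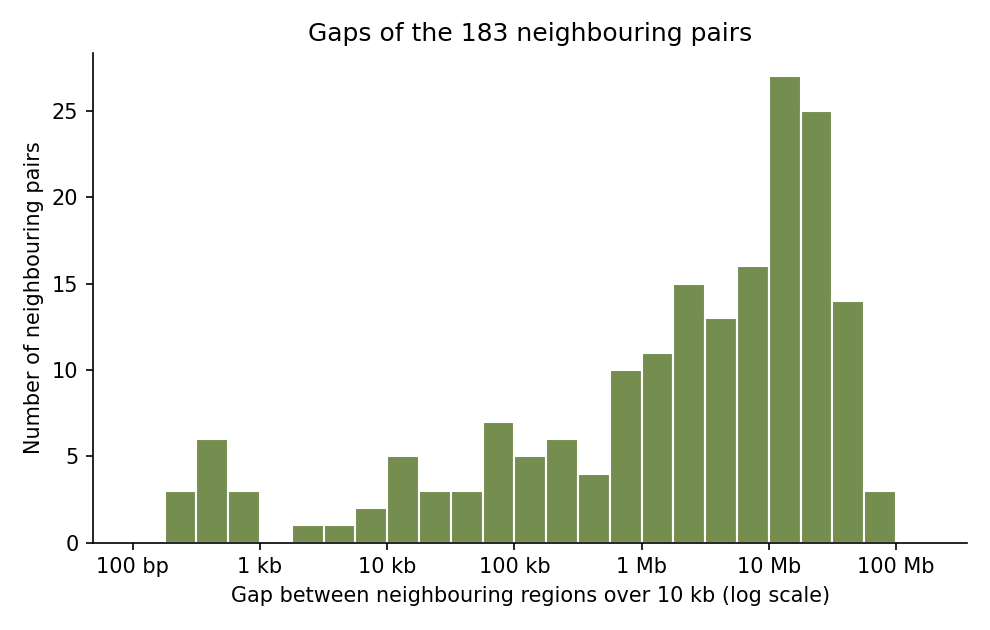
Gaps between neighbouring regions over 10 kb on the same chromosome (183 pairs), counted in equal steps of the log10 gap, with the gap on a log scale. A small set of 12 pairs lies below 1 kb and most pairs lie above 1 Mb.

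The pair with the shortest gap was chr1:270793299-270811161 and chr1:270811381-270827584, of 17.9 and 16.2 kb, with 74.2 and 61.7 normalized tags per kb. On chromosome 8, chr8:98215545-98225892 and chr8:98226137-98242385 held 78.4 and 69.6 per kb on either side of 245 bp, and on chromosome 15, chr15:50182152-50207586 and chr15:50207847-50227987 held 72.8 and 66.8 across 261 bp. The members of these 3 pairs differed by ratios of 1.20, 1.13 and 1.09. A larger step stood in chr3:147987761-147999134 and chr3:147999457-148012191, 52.7 and 70.4 per kb across 323 bp, a ratio of 1.34. The fifth pair, chr12:19156698-19170364 and chr12:19170712-19185634, held 75.5 and 70.5. The largest ratio among the 34 pairs, 1.84, was found across 426 bp on chromosome 6, between chr6:88053431-88063692 at 54.1 per kb and the dense chr6:88064118-88074195 at 99.3. This last pair was singled out after its values were seen.

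The densities of close neighbours differed about as much as those of distant ones. The ratio of the denser to the less dense region had a median of 1.215 in the 34 pairs 100 kb or less apart and 1.209 in the 149 pairs farther apart. Between the 34 close pairs, smaller regions covered a median of 11.2% of the gap, from 0 to 90.6%. The share was 0 in each of the 12 gaps under 1 kb, where the caller's minimum distance leaves little or no room for a region. These gaps lower the median. In the longer gaps of the 34 the share ran from 6.69% to 90.6%.

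Joining regions over 10 kb that lay 100 kb or less apart gave 142 single regions and 27 groups of 2 or more with 61 regions. The groups comprised 22 pairs, 4 triplets and 1 group of 5. The group of 5 spanned 237 kb at chr6:8651924-8888762. Its members had widths of 12.5, 15.9, 18.7, 10.3 and 21.1 kb in order of position and densities of 63.6, 59.9, 64.6, 45.1 and 65.7, so the narrowest was also the least dense. Input was 18.6 and 18.2 tags per kb in the first 2 of them and 11.4 to 13.0 in the other 3, and their folds were 14.1 and 13.5 against 16.3 to 22.2.

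The 4 triplets differed in how densely they were packed. At chr8:98215545-98272118 the 3 regions filled 55.8 of 56.6 kb, with densities of 78.4, 69.6 and 67.2 and folds of 17.2 to 19.8. At chr1:142186142-142245258 they filled 42.7 of 59.1 kb, with 62.8, 61.6 and 43.5 per kb. The triplet at chr19:63745428-63795636 held 71.2, 53.1 and 49.9 per kb over 50.2 kb, and the one at chr1:250836464-250927474 held 76.7, 47.6 and 60.2 per kb over 91.0 kb. Density thus differed less within the chromosome 8 triplet than within each of the other 3.

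The regions with the most distant neighbours were chr7:24862899-24873138 and chr7:74210998-74228548, the only 2 of the 203 on chromosome 7, 49.3 Mb apart. The third was chr15:16846431-16860770, 33.3 Mb from the nearest other. Densities of the 2 on chromosome 7 were 47.2 and 50.6, below the lower quartile of the 203, and that of the chromosome 15 region was 63.2. Smaller regions covered 3.05% and 2.92% of the flanks of the first 2 and 15.7% of those of the third.

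Most regions over 10 kb had many smaller regions near them. Every one of the 203 had smaller regions (10 kb wide or less) within 50 kb, from 3 to 68 with a median of 24, and 201 had them on both sides. The same numbers for narrower regions or for all autosomal regions are not given here, so nothing is read from these counts. In 2 of the 203 smaller regions covered under 1% of the flanks, less than the 1.19% over the autosomes as a whole. Between 20 and 50 kb from the edges, 96.6% of the 203 had a smaller region. There the share was 92.9% for regions of 5 to 10 kb and 89.6% for those of 2 to 5 kb. Another listed region of any width lay within 1 kb of 196 of the 203 regions (96.6%), beside 50.1% of all autosomal regions, 94.2% of regions of 5 to 10 kb and 91.9% of those of 2 to 5 kb. On 308 of the 406 sides a smaller region began within 1 kb of the edge. By region, 93.6% of the 203 had a smaller region in the first kb on either side. For regions of 5 to 10 kb this share was 92.2% and for those of 2 to 5 kb 91.4%, so it was not particular to the 203. The median gap to the next smaller region, which can lie beyond a wide neighbour, was 457 bp and the next region had a median width of 654 bp (quartiles 256 and 2151 bp). It was 2 kb or wider on 110 sides and under 500 bp on 164. Its ChIP density had a median of 30.4 per kb, beside 27.1 over all autosomal regions, whose upper quartile of 31.3 lies below the least dense of the 203.

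Smaller regions thinned out with distance. They covered 52.5% of the sequence between 1 and 2 kb from the edges of the 203, 43.2% between 2 and 5 kb, 29.4% between 5 and 10 kb, 18.4% between 10 and 20 kb, 10.1% between 20 and 50 kb and 6.66% between 50 and 100 kb. Over the autosomes as a whole they covered 1.19%. The share in the first kb, 36.8%, is lowered by the caller, which merges anything closer than about 220 bp. At 50 to 100 kb the covered share was still 5.60 times that of the autosomes.

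The same decline was found around narrower regions. Counting only regions of 2 kb or less, which exist around all 3 classes, the share between 2 and 5 kb from the edge was 23.3% beside regions over 10 kb, 18.8% beside regions of 5 to 10 kb and 15.8% beside regions of 2 to 5 kb. Between 20 and 50 kb it was 6.38%, 5.93% and 5.38%, and between 50 and 100 kb 4.06%, 4.12% and 3.59%. The classes differed most between 1 and 20 kb and little beyond 50 kb. In the first kb the shares were close, at 26.3%, 24.5% and 24.8% in the same order of classes. The classes share flanks in part, since 92 of the 463 regions of 5 to 10 kb lay within 50 kb of one of the 203, and the differences between classes were not tested.

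**Figure D4:**
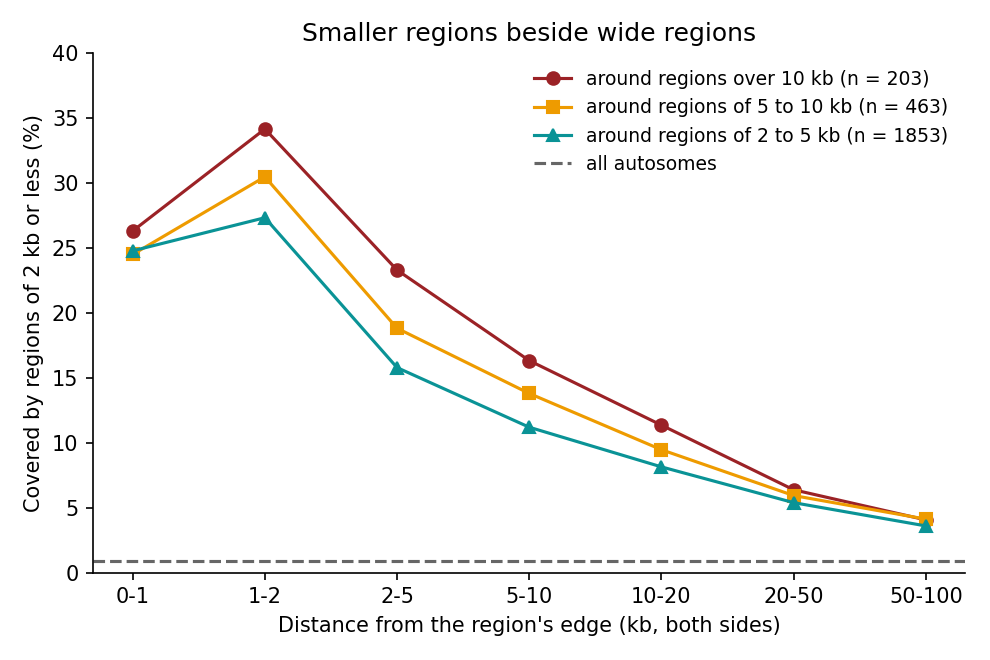
Share of sequence covered by regions of 2 kb or less (in %) against distance from the edge of a wider region (in kb, both sides together), around regions over 10 kb (n = 203), of 5 to 10 kb (n = 463) and of 2 to 5 kb (n = 1853), with the autosomal share of 0.862% dashed. The 3 curves fall from 1 to 2 kb outward and come together beyond 20 kb.

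The smaller regions near the 203 had a median width of 215 bp, against 150 bp for those farther than 100 kb away. Within 50 kb lay 4519 of them, 5.06% of all smaller autosomal regions. They included 92 of over 5 kb and 311 of over 2 kb, and the latter made up 47.0% of their 2.87 Mb. Of the 203 regions, 84 had a region of 5 to 10 kb within 50 kb and 126 one of 2 to 5 kb. The same shares over all autosomal regions are not given here, so nothing is read from these counts. The pooled fold over input of the 4519 smaller regions was 10.4 (10.3 to 10.5), with 37.5 normalized ChIP tags and 14.9 input tags per kb.

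Signal in the flanking regions was highest right beside the wide ones. The pooled fold of smaller regions within 1 kb of one of the 203 was 12.3 (12.1 to 12.6) and that between 1 and 2 kb was 12 (11.5 to 12.5). It was 9.71 (9.43 to 10.0) between 2 and 5 kb, 9.53 (9.35 to 9.71) between 50 and 100 kb and 8.90 (8.87 to 8.92) farther than 100 kb. Their widths changed with distance too, from a median of 693 bp within 1 kb to 150 bp beyond 100 kb. Among regions of 500 bp or less the fold showed no steady trend. It was 9.06 (8.24 to 9.98) within 1 kb, 8.03 (7.24 to 8.92) between 1 and 2 kb, 8.84 (8.28 to 9.45) between 2 and 5 kb, 7.99 (7.58 to 8.42) between 5 and 10 kb, 8.49 (8.22 to 8.77) between 50 and 100 kb and 8.24 (8.20 to 8.28) beyond.

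How fully the flanks were covered varied widely among the 203. Smaller regions covered a median of 14.2% of the 50 kb flanks, with quartiles of 8.22% and 23.9% and a range of 0.6% to 63.5%. The 5 fullest flanks belonged to chr2:218022520-218035082 with 63.5%, chr1:142222314-142234223 with 60.1%, chr1:142234867-142245258 with 56.6%, chr1:271928168-271953299 with 55.9% and chr15:112269615-112285456 with 45.6%. The second and the third are neighbours 644 bp apart and share most of their flanks. Densities of these 5 were 69.2, 61.6, 43.5, 72.2 and 58.3 per kb, on both sides of the median.

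At the other end stood chr8:67755443-67775257, a region of 19.8 kb with 4 smaller regions in its flanks, which covered 0.6%. It was followed by chr1:108040221-108051193 with 3 regions and 0.917%, chr4:708707-721617 with 1.53%, chr16:36175023-36189922 with 2.27% and chr1:250076266-250087409 with 2.47%. Their densities of 60.7, 53.0, 44.1, 64.6 and 65.0 per kb overlapped those of the regions with the fullest flanks. Across the 203 the covered share of the flanks had a weak relation with ChIP density (Spearman rho 0.19) and none with width (rho 0.08).

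Some regions had smaller ones mostly on 1 side. The median difference between the covered lengths of both flanks was 4.85 kb. It was largest at chr17:26613034-26625694, where smaller regions covered 29.2 kb of the lower-coordinate flank and 1.98 kb of the other. In chr5:111815042-111826989 these lengths were 26.9 and 1.15 kb, in chr16:81956115-81972140 26.8 and 2.68 kb, in chr4:419073-432520 7.19 and 28.1 kb, and in chr2:43552201-43563020 21.8 and 1.54 kb. Neither side was favoured over the 203, with more cover on the lower-coordinate side of 104 and on the other side of 98.

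Input density of a wide region and that of the smaller regions around it went together to some extent. Among the 201 wide regions whose flanking regions held 20 or more input tags, Spearman's rho between both input densities was 0.41, and it was 0.38 without the 3 of highest input. For ChIP density rho was 0.25 and for fold it was 0.20. Wide and flanking regions share chromosome neighbourhood, libraries and caller. The flanking regions had a median ChIP density of 33.1 per kb, and they held less input per kb than the wide region itself in 103 of the 201.

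Merging regions 3 kb or less apart placed the 203 regions in 180 stretches, of which 21 held 2 or more of them. The stretches were 12.7 to 146.4 kb wide, with a median over the 203 regions of 37.7 kb, and 181 of the 203 regions lay in a stretch of at least 20 kb. A wide region made up a median of 56.0% of the called length of its stretch, from 10.7% to 97.8%. Each stretch held at least 2 called regions, with a median over the 203 regions of 12.

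Which regions were the widest depended on breaks of under 1 kb. When regions 1 kb or less apart were merged, a setting planned for the count alone, 616 stretches were over 10 kb, and 187 of them held one or more of the 203 regions. None of the 5 widest regions lay in the 5 widest of these stretches. The widest, 61.2 kb at chr8:98210944-98272118, held the chromosome 8 triplet and was covered to 96.9%, with a fold of 17.4. The second widest, 55.5 kb at chr9:81880861-81936330, held none of the 203, since its 19 regions were at most 8.49 kb wide, and it was covered to 86.3% at a fold of 12. The 429 stretches without one of the 203 were covered to a median of 78.1% at a median fold of 10.4, and those with one to 91.5% at 15.1. Each stretch with one holds an unbroken region over 10 kb by the choice, so its fuller cover follows from the choice. Pooled fold was also higher in wider regions of the list, at 10.25 for 2 to 5 kb, 13.35 for 5 to 10 kb and 16.68 over 10 kb. Nothing is read from this difference. These comparisons of stretches were chosen after their values were seen.

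The 203 regions were found on each of the 20 autosomes, at 0.739 per 10 Mb of span (95% interval 0.641 to 0.848). Chromosome 1 carried the most, 27, followed by chromosome 2 with 22, chromosome 3 with 20 and chromosome 6 with 16. Per 10 Mb the rate was highest on chromosome 12, with 7 regions or 1.29 (0.517 to 2.65), and lowest on chromosome 7, with 2 regions or 0.139 (0.0169 to 0.504). Chromosomes 11 and 18 also had 2 regions each, at 0.214 (0.0259 to 0.773) and 0.231 (0.0279 to 0.834). The interval of chromosome 7 lay wholly below the autosomal rate, but only with the 3 spans left out. Chromosome 7 is the lowest of 20 autosomes, and the intervals are not adjusted for that number. They also take regions as independent, though some lie close together. With the spans kept, a setting added after seeing the data, chromosome 7 had 5 regions at 0.348 per 10 Mb (0.113 to 0.813), which includes the rate of 0.779 over all autosomes. In that setting chromosome 11 was lowest, its interval just below the common rate. Chromosome 10 was highest with 17 regions at 1.52 (0.883 to 2.43), its interval wholly above that rate. Of these 17 regions, 6 lay inside the left-out span of chromosome 10. Relative to all listed regions, chromosome 7 had 0.476 per 1000 and chromosome 2 had 3.82.

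**Figure D5:**
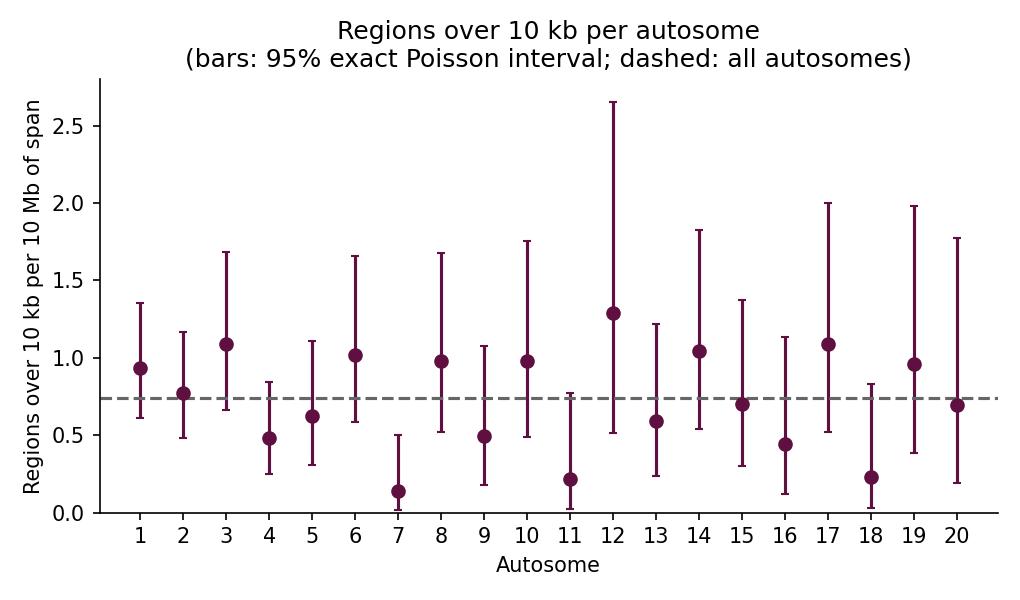
Regions over 10 kb per 10 Mb of span on each of the 20 autosomes, with 95% exact Poisson intervals for counting error alone and the rate of all autosomes dashed at 0.739. Chromosome 7 lies lowest at 0.139 and chromosome 12 highest at 1.29, and most intervals include the common rate.

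The signal of these regions overlapped between chromosomes. On the 15 autosomes with 5 or more of them, median ChIP density ran from 53.1 to 69.1 normalized tags per kb, median input density from 11.7 to 16.3 tags per kb and median fold from 13.95 to 22.7. Chromosome 8 had the highest median density, 69.1, with its 13 regions between 47.0 and 84.6. Chromosome 19 had the lowest, 53.1, with 7 regions between 37.3 and 81.4. The highest median fold, 22.7, belonged to the 7 regions of chromosome 12, where the median input density of 11.7 was the lowest.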

How the data were processed

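Per the submitters' processing notes CASAVA 1.8.2, Bowtie and HOMER were used. No source used here gives the Bowtie and HOMER versions or the genome build. Per the file headers, HOMER findPeaks called stitched regions (peak size 150 bp, minimum distance 370 bp, 14 tags per window, fold of 4 and Poisson p of 1e-04 over input) on 1 combined ChIP and 1 combined input tag directory. Which libraries were combined is not stated.

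The deposited normalized tag count is a ChIP signal scaled to 10000000 tags, and the deposited input signal is in tags. The deposited fold is the ratio of ChIP tags scaled to the input over input tags. The deposited p-value is a Poisson p over input, from the caller. The deposited score was not used. ChIP tags were recovered from the header total of 46826704 and were whole within 0.25 tags for all 203 regions.

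Fold intervals are exact Clopper-Pearson and rate intervals exact Poisson, at 95% and for counting error alone, without molecular identifiers. Medians have 95% order-statistic intervals and shares of regions 95% Clopper-Pearson intervals, which reflect the spread over regions. Flanks are 50 kb on each side, less any sequence in regions over 10 kb. Smaller regions are 10 kb wide or less. Python 3.11.15, pandas 2.3.3, numpy 2.4.6 and scipy 1.17.1 were used, and merging, gap and flank functions were tested on simulated layouts. The 203 regions and all measures were chosen with earlier results of these data known. Regions are named by a rule: the 5 widest, the 5 highest and 5 lowest in ChIP density, the 3 highest and 3 lowest in input density, the 5 closest pairs, the 3 most distant, the 5 fullest, 5 emptiest and 5 most uneven flanks, and 3 on each side of the threshold. Groups of 3 or more were named after seeing the data. No gene lists or cell type markers could be used without gene positions in the list's build.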

Additional observations from a re-analysis of the deposited data

Results flagged for a closer look

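Wide regions outside the choice also carried signal above input. The 2 regions over 10 kb on X, chrX:140918668-140932195 and chrX:62960675-62971243, had a pooled fold over input of 23.4 (95% counting interval 20.01 to 27.6). Their ChIP densities were 36.9 and 39.95 normalized tags per kb, and their input densities 7.32 and 5.96 tags per kb. Both ChIP densities lay below the lower quartile of the 203 autosomal regions, and both input densities lay below the lowest of them. The 11 regions inside the 3 left-out spans had a pooled fold of 19.0 (18.2 to 19.7), a median ChIP density of 68.2 and a median input density of 14.2. A fold of at least 4 was required for listing, so signal above input is a condition of being in the list.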

How the results depend on the processing

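The deposited list is combined, so no library could be left out, and no paired analysis was possible because the labels give 1 group and the list has no column per library. Depth limits the fold of a single region to the intervals given. The number of regions, 203, became 307 over 8 kb, 145 over 12 kb, 83 over 15 kb, 214 with the 3 spans kept, 202 at a fold of 8 or more and 616 with regions 1 kb or less apart merged. Over 8, 12 and 15 kb and with the spans kept, the share of covered length was 11.3%, 6.98%, 4.64% and 9.23%, and the share of ChIP tags 19.8%, 12.9%, 8.82% and 16.7%. Median ChIP density was 58.4 over 8 kb and 66.2 over 15 kb, while 4 other alternatives stayed within 59.0 to 63.2. Median input density stayed within 14.4 to 15.3 for the 3 widths and the spans, and pooled it was 15.4. The share with another such region nearby was 24.1% within 50 kb, 34.5% within 200 kb and 48.8% within 1000 kb. With flanks of 10, 20 and 100 kb the median number of smaller regions was 8, 13 and 35 and the covered share 36.6%, 27.5% and 11.7%, against 24 and 16.9% at 50 kb. Keeping smaller regions at a fold of 8 or more gave 12 and 11.3%, and keeping the spans gave 24 and 18.3%. The relation of ChIP density to width was 0.30 by Pearson and 0.35 by Spearman. The highest autosomal rate was 9.23 times the lowest per Mb, 8.02 times per 1000 regions and, added after seeing the data, 7.08 times with the spans kept, where chromosomes 10 and 11 replaced 12 and 7 as highest and lowest. The ratio of spread to counting error stayed within 1.5 times of its value for ChIP and input in regions of 10 to 12 kb, and, chosen after seeing the data, without the 3 regions of highest input.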
